A study of Mus musculus with 2 samples.

Results

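The small leucine-rich proteoglycans (SLRPs) are a family of secreted matrix proteins, and 6 of their genes were examined here: the decorin gene Dcn, the lumican gene Lum, the osteoglycin gene Ogn, the biglycan gene Bgn, the fibromodulin gene Fmod and the osteomodulin gene Omd. Members were found by platform symbol, current or older, and all 6 were on the array, with 9 probe sets in all, among 8251 genes. Levels were compared between 2 mouse mesoangioblast clones, D16 and D351, each measured on 1 Affymetrix U74A array of total RNA. Mesoangioblasts are vessel-associated progenitors from which several kinds of mesodermal cell can form. Both clones were grown from C57BL6 dorsal aorta taken on embryonic day 9.5, without any treatment or genetic change named in the labels. The aorta was cultured for 5 days as an explant, and single cells were then cloned in medium with 20% fetal calf serum on primary embryonic fibroblasts that mitomycin C had arrested, before the clones were expanded on gelatin. Each line is thus a single clone, and with 1 array per clone there is no replicate error and no test: every difference below is a size measured between these 2 arrays.

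SLRP proteins fold around tandem leucine-rich repeats and bind along collagen fibrils, where they regulate how thick and how evenly spaced the fibrils become. Decorin and biglycan (class I) carry chondroitin or dermatan sulfate chains, whereas lumican, fibromodulin and osteomodulin (class II) and osteoglycin (class III) can carry keratan sulfate. Several members also bind growth factors and receptors, and decorin is a product of fibroblasts and other connective tissue cells. In these arrays Ogn and Lum were about as far apart between the clones as each other, 4.04-fold and 4.02-fold higher in D351, while Bgn and Dcn were 1.35-fold and 1.53-fold higher there. Fmod and Omd were below the intensity floor in both clones. The floor was an intensity of 17.4, the 40th percentile of all values, under which a level is only known to be low.

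The stretch just upstream of a gene's start is shown for Ogn, which was past 2-fold between the clones, for Omd, its neighbour on chromosome 13, which was below the floor, and for Bgn, which was well above the floor in both clones and within 2-fold. Each run is 250 bases long, read 5′ to 3′ on the + strand, with its last base just before the RefSeq start in GRCm38.p6, and capitals mark the motif matches described after it.
Ogn: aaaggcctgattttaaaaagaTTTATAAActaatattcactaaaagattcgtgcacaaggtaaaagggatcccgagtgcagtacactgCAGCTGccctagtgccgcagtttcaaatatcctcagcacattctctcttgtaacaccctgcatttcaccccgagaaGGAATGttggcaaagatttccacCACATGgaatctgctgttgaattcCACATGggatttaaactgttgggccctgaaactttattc
Omd: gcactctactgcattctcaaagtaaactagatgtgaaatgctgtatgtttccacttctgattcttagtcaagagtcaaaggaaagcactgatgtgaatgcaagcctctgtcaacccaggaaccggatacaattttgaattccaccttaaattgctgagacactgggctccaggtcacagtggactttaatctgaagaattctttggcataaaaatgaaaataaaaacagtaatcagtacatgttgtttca
Bgn: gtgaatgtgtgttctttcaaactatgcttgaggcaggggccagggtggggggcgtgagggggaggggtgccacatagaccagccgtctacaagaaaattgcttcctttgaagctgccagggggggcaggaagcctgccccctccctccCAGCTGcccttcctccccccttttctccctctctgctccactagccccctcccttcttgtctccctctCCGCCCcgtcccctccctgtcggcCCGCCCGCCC
These stretches lie at chr13:49607765-49608014 for Ogn, chr13:49582212-49582461 for Omd and chrX:73483351-73483600 for Bgn.

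The GC content of the Ogn stretch was 42.0%, that of Omd 38.4% and that of Bgn 64.4%, against a median of 52.4% over 32851 promoters of the same length. A set of common motifs, chosen with the sequences in view, was searched on both strands: the TATA box as TATAAA, the CCAAT box by its name's letters, the GC box as GGGCGG, the E-box as CANNTG, the AP-1 motif as TGANTCA, the MCAT motif as CATTCC, and the CArG box. The Ogn stretch held 3 E-boxes (first bases at -162, -63 and -39, with -1 the last base before the start), 1 MCAT motif at -86, and 2 overlapping TATAAA matches at -229 and -227, on opposite strands. Shares of all promoters with such a match were 66.2% for the E-box, 12.6% for MCAT and 12.4% for TATAAA. The Bgn stretch held 3 GC boxes, at -34, -10 and -6, the last pair of them overlapping, and 1 E-box at -102; a GC box was present in 32.7% of all promoters. The Omd stretch held none of the motifs searched. CCAAT, AP-1 and the CArG box, present in 33.8%, 6.75% and 1.47% of all promoters, had no match in any of the 3 stretches. Such matches describe the letters only.

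Among the class I members, Dcn measured 437 in D16 and 669 in D351 (probe set 93534_at, scaled intensity), which puts the log2 ratio (D351 over D16) at 0.61. The D351 level was the higher one. The difference is close to the 0.52 SD of log2 ratios that separates probe sets of a single gene on these arrays (808 genes). That SD covers the spread between probe sets only and no error between arrays or cultures. Dcn has a single probe set, so its ratio has no second reading. Bgn measured 3224 in D16 and 4359 in D351 by its brightest probe set (96049_at), a log2 ratio of 0.43. Its other probe set (162347_f_at) measured 276 and 423, a log2 ratio of 0.62, but has a suffix that marks probes able to match related transcripts. Both readings of Bgn were higher in D351, within 2-fold, and lay 0.18 apart on the log2 scale. Decorin and biglycan are each other's closest relatives in the family, and their genes had ratios 0.18 apart, less than the SD of 0.73 expected for a difference between 2 probe sets.

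Ogn, the class III member, first isolated as a bone-associated factor and also found in vessel walls, measured 166 in D16 and 671 in D351 by its brighter probe set (160877_at). A second probe set (99549_at) measured 129.9 and 498. Both put D351 above D16, with log2 ratios of 2.02 and 1.94, and the gap between them was 0.08. Ogn is thus the member past 2-fold whose difference rests on 2 readings that are alike and well above the floor in both clones. Lum, a class II member that spaces collagen fibrils in the cornea and other tissues, measured 23.4 in D16 and 94.0 in D351 (93353_at), a log2 ratio of 2.01. The D16 level of Lum was near the floor, where probe sets of a gene vary more: the SD between them was 0.59 over 43 genes whose lower level was under 2 times the floor, against 0.43 over 537 genes at higher levels. The size of the Lum difference is accordingly less certain than that of Ogn, and Lum has no second probe set.

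The other class II members were low in both clones. Fmod, which guides collagen fibril growth and cross-linking in tendon, measured 3.24 in D16 and 8.45 in D351 (99152_at), and 4.62 and 5.60 by its other probe set (161373_r_at). Omd, a keratan sulfate proteoglycan of mineralised tissue, measured 3.24 and 7.74 (93369_at). All 3 of these probe sets were under the floor in both clones, so no ratio is given and the order of their values carries no information. A low array signal does not show that a transcript is absent.

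**Figure D1:**
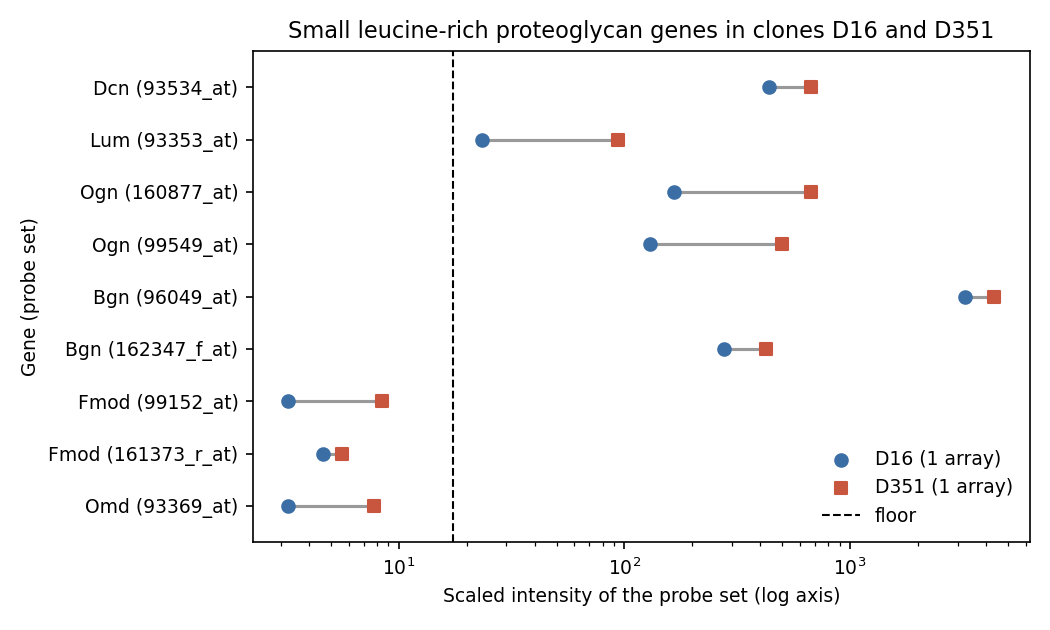
Scaled intensity (log axis) of each of the 9 SLRP probe sets in clone D16 (circles) and clone D351 (squares), 1 array each, with the floor of 17.4 as a dashed line. The widest gaps above the floor are those of Lum and of both Ogn probe sets, and all Fmod and Omd values lie left of the line.

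Counted at 2-fold or more, 2 of the 6 genes (Ogn and Lum) were higher in D351 and 0 in D16, 2 (Dcn and Bgn) were within 2-fold, and 2 (Fmod and Omd) had no ratio. Over the 6101 genes that reached the floor in D16, in D351 or in both, 10.6% passed 2-fold toward D351 and 8.83% toward D16. All 4 measured members reached the floor on both arrays and were higher in D351 by some amount, as were 6 of 6 of their probe sets, beside 48.5% of all genes. The median log2 ratio of the 4 was 1.31, beside -0.03 over all genes. That median falls in the gap between Ogn and Lum on one side and Dcn and Bgn on the other, so it describes no single member. In total RNA, fewer cells of a type and less RNA per cell cannot be told apart.

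Placed among all 6101 genes, Ogn had 131 genes (2.15%) with a higher ratio and Lum 136 (2.23%), while Dcn had 1238 (20.3%) and Bgn 1616 (26.5%). Genes below the floor in D16 only or D351 only entered at their bounds, so these counts are minimums. Ogn and Dcn differed by 1.40 in log2 ratio, and Ogn and Bgn by 1.58, which is 1.92 and 2.17 times the 0.73 SD of a difference between 2 probe sets. Lum and Dcn also differed by 1.40, and Lum and Bgn by 1.57. Ogn and Lum differed by 0.01. Dcn and Bgn, the pair with the smaller ratios, are the class I members. Over 2 arrays any gene with the same ratio has the same pattern. Nearest in log2 ratio to Ogn were Lpl and Skp1 (both 2.02), to Lum Ccn5 (2.01) and Rab9 (2.00), to Dcn Ddx17 and Htr3a (both 0.61), and to Bgn Rgs3 and Srsf5 (both 0.43).

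**Figure D2:**
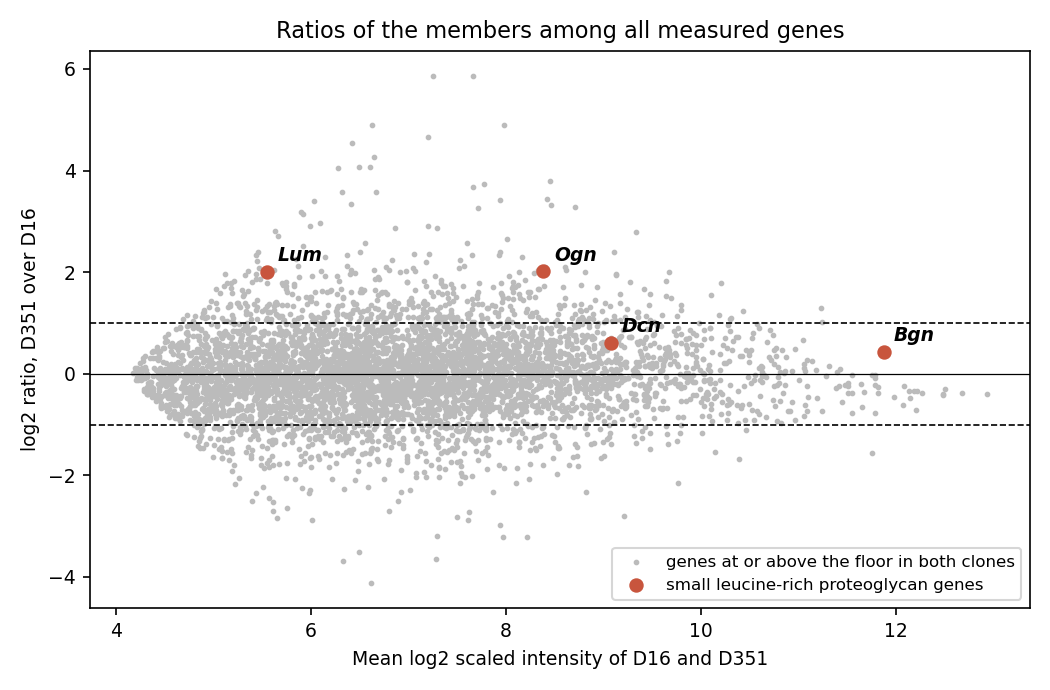
Log2 ratio of D351 over D16 against the mean log2 scaled intensity for the 5202 genes that reached the floor on both arrays (grey), with the 4 measured SLRP genes in colour and dashed lines at 2-fold. Ogn and Lum sit above the upper line at log2 ratios of 2.02 and 2.01, Dcn and Bgn between the lines at 0.61 and 0.43.

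SLRP genes lie in clusters in the genome, and the neighbours differed from each other in these clones. On chromosome 10, Dcn and Lum are adjacent protein-coding genes followed by the SLRP genes Kera (keratocan) and Epyc (epiphycan). Dcn was well above the floor in both clones and within 2-fold, Lum was near the floor in D16 and 4.02-fold higher in D351, and Kera (6.09 in D16 and 6.01 in D351) and Epyc (8.35 and 4.68) were below the floor in both. Chad, the other related leucine-rich matrix gene on the array, was also below it (10.2 and 17.2), so none of those 3 relatives had a ratio. Btg1, an antiproliferative gene on the other side of Dcn, measured 233 and 313. On chromosome 13, Omd, below the floor in both clones, lies directly before Ogn. Iars, an isoleucyl-tRNA synthetase gene beyond Ogn, measured 795 in D16 and 428 in D351, a log2 ratio of -0.89 against 2.02 for Ogn. Aspn and Ecm2 of this cluster, and Prelp and Optc beside Fmod on chromosome 1, had no probe set assigned to them alone, so no level is given. Btg2, the neighbour on the other side of Fmod, measured 218 and 347. Near Bgn on the X chromosome, the phosphatase gene Dusp9 was just above the floor in D16 (17.9) and below it in D351 (9.06).

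The fibrils that SLRPs coat are built of collagen, and collagen genes were higher in D351 as a list. Of 10 measured genes of 11 on the array, 8 passed 2-fold toward D351 and 0 toward D16, and the median log2 ratio was 1.20. Col5a1, which encodes a collagen V chain that starts fibrils, measured 405 in D16 and 1636 in D351 (4.04-fold; log2 ratio of 2.92 for another probe set). The collagen VI gene Col6a2 was 3.37-fold higher, Col3a1 2.54-fold, Col1a1 2.45-fold (log2 ratio of 0.42 for another probe set), Col5a2 2.36-fold and Col6a1 2.24-fold. Col11a1 (70.3 and 90.8) was within 2-fold, and Col12a1, which encodes a fibril-associated collagen, was 22.7 in D16 and below the floor in D351. The ratios of Ogn and Lum were 0.82 and 0.81 above the collagen median and level with that of Col5a1, whose order against Ogn turns with the probe set chosen (2.02 and 1.94 for Ogn, 2.01 and 2.92 for Col5a1). By the brightest probe sets, Dcn and Bgn had ratios below those of 8 of the 10 collagens, though the other Col1a1 reading (0.42) was under Dcn. Dcn and Bgn lay at -0.59 and -0.76 from the collagen median. These gaps are near the spread between probe sets, and the signal of a probe set cannot be turned into a molar ratio of proteoglycan to collagen.

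Genes that process and join the fibrils had a median of 0.82, and 7 of the 16 that were measured passed 2-fold toward D351, against 0 toward D16. Thbs2, a matricellular gene needed for regular fibrils, did not reach the floor in D16 and was higher in D351 by at least 64.4-fold; Tll1, a tolloid protease related to the enzyme that trims biglycan and osteoglycin, was higher by at least 5.08-fold. Sparc, a collagen-binding matricellular gene, was 3.42-fold higher, the prolyl hydroxylase gene P4ha1 2.81-fold, the membrane collagenase gene Mmp14 2.31-fold and the collagen chaperone gene Serpinh1 2.15-fold. Fbln2, Pcolce and Lox, for fibulin-2, a procollagen protease enhancer and lysyl oxidase, were within 2-fold (log2 ratios of 0.67, 0.36 and 0.42).

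The enzymes that make the sugar chains of proteoglycans had no common direction. Of 12 measured genes of 14 on the array, 1 passed 2-fold toward D351 and 1 toward D16, and the median log2 ratio was 0.00, with a sign that turned under 7 of 10 alternatives. Chpf, a chondroitin polymerising factor, was 2.09-fold higher in D351. Papss1, which makes the sulfate donor, was 2.07-fold higher in D16 (528 and 256). Ugdh, which makes the glucuronic acid donor, measured 1934 in D16 and 1019 in D351, B4galt1 282 and 247, and the sulfate donor transporter gene Slc35b2 260.3 and 234.

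Among ligands and receptors that SLRPs are known to bind, 5 of the 19 measured passed 2-fold toward D351 and 0 toward D16. Their median of 0.79 was 0.50 with the floor at the 25th percentile, 0.52 without a floor and 0.24 with a pseudocount of 20, which brought in more genes of low signal (26 measured, then 28), and 1.05 with scaling on the hybridization controls. The 5 were P2rx4, a purinergic receptor gene linked to biglycan (3.78-fold), Ccn4, whose product binds decorin and biglycan (3.27-fold), Egfr, the growth factor receptor that decorin binds (3.16-fold, D16 level of 30.1; at the other probe sets the D16 level was below the floor, with log2 ratios of at least 0.94 and 1.33), Ccn2 (2.52-fold) and the Wnt co-receptor gene Lrp6 (2.43-fold, with a bound of -0.06 for another probe set). Lrp1, an endocytic receptor that takes up decorin, was 1.99-fold higher, while the integrin genes Itgb1 and Itgav had log2 ratios of 0.02 and 0.29. Other proteoglycans were split, with 4 of 15 past 2-fold toward D351, 3 toward D16 and a median of 0.14. That median was -0.20 without a floor, -0.04 with the pseudocount, 0.50 with hybridization control scaling and 0.87 with the floor at the 60th percentile, where 8 genes were measured. Gpc4 and Sdc2, membrane heparan sulfate proteoglycans, were 3.03-fold and 2.34-fold higher in D351, as were the basement membrane genes Hspg2 (2.70-fold) and Agrn (2.15-fold). Gpc1 was 2.13-fold and Cd74, the invariant chain, 2.40-fold higher in D16, and the large proteoglycan gene Vcan (531 and 450.4) was within 2-fold, as were Sdc4 and Sdc1 (log2 ratios of 0.75 and 0.14).

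**Figure D3:**
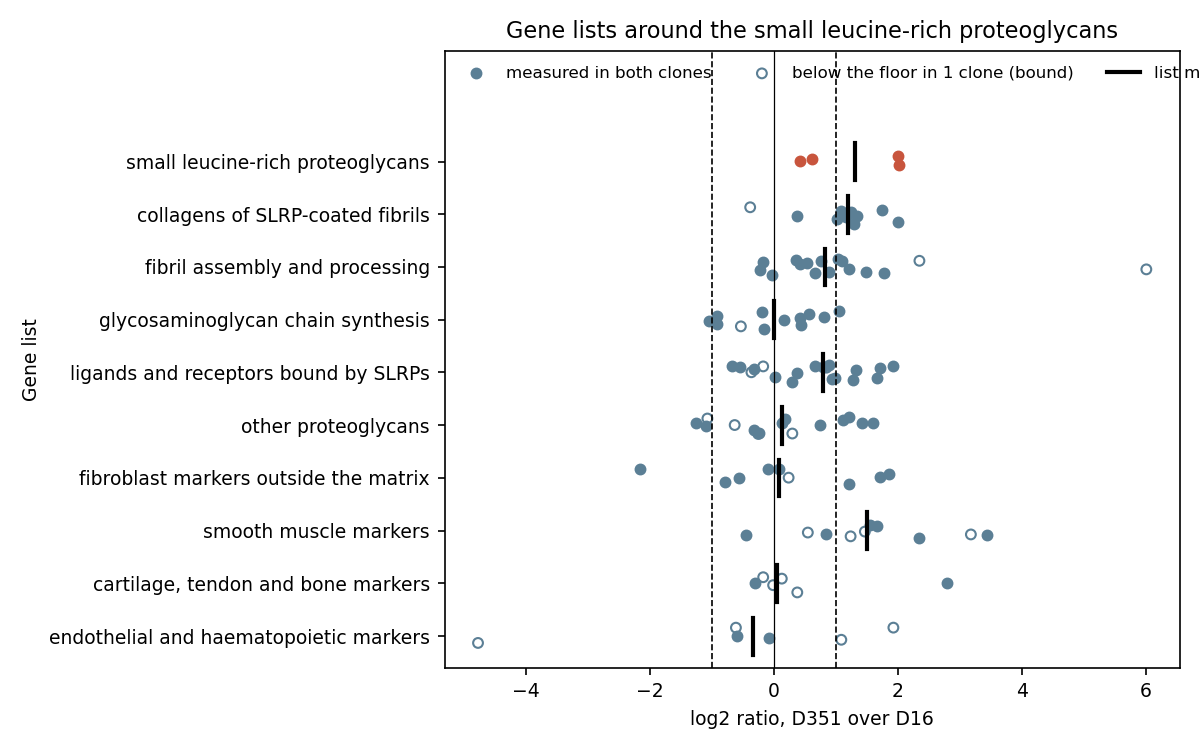
Log2 ratio of D351 over D16 for each measured gene of the SLRPs and of 9 other lists, with list medians as bars, open circles for genes below the floor in 1 clone (bounds) and dashed lines at 2-fold. The SLRP median is 1.31, the collagen median 1.20 and the median of sugar chain enzymes 0.00.

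Markers of several cell types were read beside the SLRP genes. The smooth muscle list had 7 of 10 genes past 2-fold toward D351, 0 toward D16, a median log2 ratio of 1.51 and a summed level of 2119 in D16 and 6172 in D351. Its largest ratios were those of Actg2 (10.8-fold, by a probe set that can match related actins), Cnn1 (at least 9.04-fold, also by such a probe set) and Mylk (5.07-fold). Fibroblast markers outside the matrix, of interest because of the fibroblast feeder, had 9 of 11 genes at or above the floor, a summed level of 4617 in D16 and 2979 in D351, and a median of 0.08 whose sign turned with the higher floor. Past 2-fold toward D351 were 3 of them, Pdgfrb (3.62-fold), Ddr2 (3.28-fold) and Prrx1 (2.31-fold). S100a4 was 4.42-fold higher in D16 (1834 and 414) and made up most of the difference between the summed levels. Thy1, Pdgfra and Twist1 were within 2-fold (log2 ratios of -0.56, -0.09 and -0.79), though another Pdgfra probe set had a log2 ratio of -1.54. Fap and Tcf21 did not reach the floor in either clone. The part of feeder cells or of smooth muscle character in the SLRP levels was not tested. Of cartilage, tendon and bone markers, 6 of 8 were at or above the floor in a clone, 1 of them past 2-fold toward D351 and 0 toward D16. Summed levels were 346 and 1782, in D351 mostly from the calcification inhibitor gene Mgp (246 and 1697), and the median of 0.06 was -0.14 with the lower floor and 2.73 with the higher one, where Mgp was the 1 gene still measured. Endothelial and haematopoietic markers reached the floor in 6 of 14 genes, with summed levels of 719 and 296 (244 and 289 without Cd34), 2 past 2-fold toward D351, 1 toward D16 and a median of -0.33 that turned positive (0.06) when the arrays were scaled on their hybridization controls.

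Of the markers by which mesoangioblasts are known, Cd34 measured 475 in D16 and was below the floor in D351, and Kit and Kdr were below it in both clones. Thy1 (1534 and 1041), Pdgfra (762 and 714; log2 ratio of -1.54 for another probe set), Itgb1 (1833 and 1854), Acta2 (939 and 1686), Pdgfrb (54.3 and 197), Tagln (643 and 1884) and Cd44 (36.6 and 47.7) were above the floor in both, and Alpl was near it (15.3 and 19.0). Of the 9 measured of 11 such markers on the array, Pdgfrb and Tagln passed 2-fold toward D351 and Cd34 toward D16, and their median was 0.13, turning sign with the higher floor. The ratio of 3' to 5' signal, a measure of RNA integrity, was 1.81 in D16 and 1.37 in D351 for Actb, and 1.56 and 1.44 for Gapdh, but 2.68 and 3.39 for the pyruvate carboxylase gene Pcx, so the controls did not share a direction; the part of RNA integrity in the SLRP ratios was not tested. The 9 hybridization controls had a median log2 ratio of -0.39 (range -0.50 to 0.01). With the arrays scaled on those controls the median of all genes moved to 0.34, the share of 2-fold differences that favoured D351 went from 54.5% to 82.9%, and Dcn passed 2-fold (log2 ratio of 1.01) as the third member, beside 19.9% of all genes. That scaling multiplies each array by a single factor, so the order of the 4 members could not change.

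**Figure D4:**
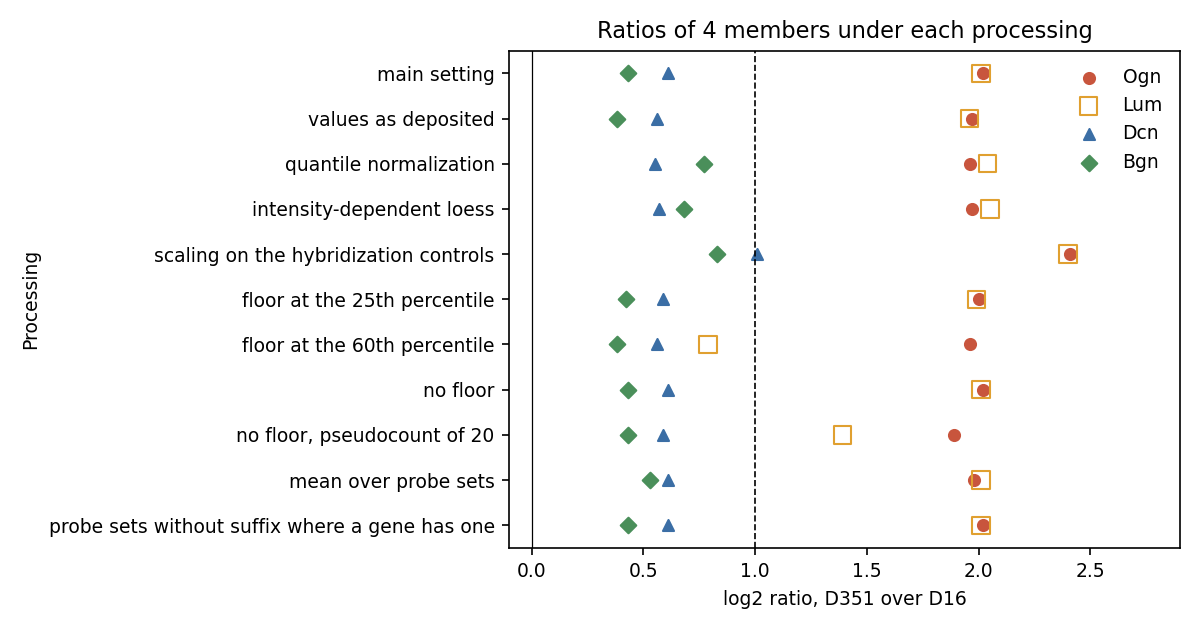
Log2 ratio of D351 over D16 for Ogn, Lum, Dcn and Bgn under the main setting and each of 10 alternatives, with a dashed line at 2-fold. Ogn lies right of the line throughout (1.89 to 2.41) and Bgn left of it (0.38 to 0.83), Lum is left of it only with the floor at the 60th percentile, where 0.79 is a bound, and Dcn reaches 1.01 only with scaling on the hybridization controls.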

How the data were processed

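The deposited intensity values of 2 arrays, 1 per clone, were used as the authors gave them, on a linear scale per probe set; no source used here names the software, background method or scaling behind them. The 2% trimmed mean was 100.1 on both arrays, and no detection call was used. Gene names came from the platform annotation of array version 2 (the labels read U74A), with symbols updated by Entrez number to RefSeq (GRCm38.p6); of 12422 probe sets other than controls, 10833 carried 1 symbol, 396 several and 1193 none. The arrays were scaled by factors of 0.983 (D16) and 1.02 (D351) to equal median log2 levels. A floor was set at the 40th percentile, 17.4, values below it were raised to it, and log2 ratios of D351 over D16 were taken. The probe set with the highest mean level represented each gene. Differences were counted at 2-fold or more, without a test, since each clone has 1 array. The number of arrays limits the precision. The functions were tested on simulated data.

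The 6 genes and all gene lists were chosen with earlier results of these data known. Named genes are all members and mesoangioblast markers, from each other list up to 6 genes past 2-fold and up to 3 within it with the highest level, the nearest 2 protein-coding genes on each side of a member, and the 2 genes nearest in ratio. Alternatives covered scaling, floor, probe set rule and threshold. Upstream sequences are RefSeq's (GRCm38.p6). Python 3.11.15, numpy 2.4.6, pandas 2.3.3, statsmodels 0.14.6 and matplotlib 3.10.9 were used.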

Additional observations from a re-analysis of the deposited data

How the results depend on the processing

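No paired analysis was possible because only 1 array was made per clone, which also leaves no replicate to drop. The 4 measured SLRP genes were higher in D351 under all 10 alternatives of scaling, floor and probe set rule. Several of these could not turn a direction: neither a floor nor a pseudocount can reverse a ratio, and Dcn and Lum each have a single probe set. Ogn was past 2-fold in 10 of the 10 alternatives and Lum in 9. With the floor at the 60th percentile (53.2), 0.79 for Lum was a bound. The count of members past 2-fold toward D351 was then 1, beside 8.44% of 4429 genes. Without a floor the count was 4, beside 14.0% of 8251 genes. Fmod and Omd then had log2 ratios of 1.38 and 1.25 made from values below the floor. The count was 3 with hybridization control scaling and at 1.5-fold, and 2 at 3-fold. The count higher in D16 was 0 throughout. The median log2 ratio of 1.31 was 1.70 with scaling on the hybridization controls, 0.50 with the floor at the 25th percentile, 0.68 with that at the 60th and 0.51 with a pseudocount of 20; with the lower floor and with the pseudocount, Fmod and Omd also had ratios and entered the median. Of 100 list medians under the alternatives, 73 moved by less than the probe set spread allows for and 27 by more, 10 of these with hybridization control scaling. At 1.5-fold, 21.1% of all genes were higher in D351, and at 3-fold 4.15%. Lum, Fmod and Omd are limited by signal near or under the floor, and all genes by 1 array per clone.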
